A study of Sus scrofa with 15 samples.

Results

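Enzymes that add or remove methyl and acetyl groups on histones were followed in pig oocytes across the resumption of meiosis. The members are all rows of the deposited pig gene table whose symbol, found from the Ensembl gene identifier, begins with KDM, KMT, SETD, HDAC or SIRT, or with KAT and a number, together with EZH1, EZH2, EED, SUZ12, EHMT1, EHMT2, SUV39H1, SUV39H2, EP300 and CREBBP. The rule found 68 of 22516 rows, and it reads gene symbols alone. KAT6A, KDM2B, KDM5C and KMT2D are not analysed here. Of the 68 members, 63 passed the filter on low counts and were tested. HDAC4, HDAC5, HDAC7 and HDAC10 had too few counts, and KDM5D was listed at 0 in every library.

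Histone marks record which chromatin is open to transcription. Methyl groups on H3K4 mark active promoters, those on H3K9, H3K27 and H4K20 mark silenced chromatin, and acetyl groups loosen the fibre until deacetylases remove them. A fully grown oocyte is transcriptionally silent and lives on stored maternal mRNA, part of which is destroyed and part newly used as the oocyte matures, while its chromatin condenses and loses most histone acetylation.

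The 15 libraries fall into 3 groups of 5. GV oocytes, with an intact germinal vesicle, were taken from fresh follicles without culture. MII oocytes had been matured in vitro for 44 h within their cumulus complexes and showed a first polar body, whereas ‘damaged’ oocytes had passed through the same 44 h and showed none. The culture medium of MII and ‘damaged’ oocytes held gonadotrophins (PMSG and hCG), EGF, insulin, cysteamine and follicular fluid, which GV oocytes did not receive, so stage and culture cannot be told apart. The labels name no genetic change. Ovaries came from an abattoir, cumulus cells were stripped with hyaluronidase, and each library pooled 15 oocytes, so no library describes 1 oocyte or 1 sow. Per the methods there were 5 independent collections, each with a pool of every group, and the labels only number the libraries, without saying that a number marks a collection. Because each library is a pool scaled to its own total, fewer contributing cells and less RNA per cell cannot be told apart.

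Library totals lay between 6.40 and 23.6 M estimated counts. GV replicate 3 was the shallowest and stayed out of the tests, which left 4 GV, 5 MII and 5 ‘damaged’ libraries. For 7 columns of the gene table the name and the total pointed to different libraries, so gene counts of every library were rebuilt from its own labelled transcript file. Defining oocyte markers were present in every group. Markers were looked up by gene symbol, and whether one not found lacks a symbol or any count was not tested. The 13 of 14 oocyte markers found summed to between 11778 and 13607 normalised CPM in GV, 7473 and 10469 in MII, and 9065 and 11052 in ‘damaged’ libraries. The 10 of 16 cumulus and granulosa markers found summed to between 2.71 and 6.03, 10.5 and 16.3, and 6.48 and 10.8, respectively. Most of the latter difference was GATM, at a mean of 1.41, 9.61 and 6.67 normalised CPM. The other 9 markers were low and went both ways. PTGS2 was at 0.677, 1.57 and 1.61, CYP11A1 at 0.0127, 0.315 and 0.137, and TNFAIP6 at 0.593, 0.795 and 0.0397, whereas FSHR was at 0.45, 0.16 and 0.185, and AMH was at 0 in all 5 MII libraries. The 5 of 6 stroma markers summed to between 6.99 and 13.8 over the 14 libraries, and the 5 of 6 blood cell markers to between 6.74 and 10.2 in GV, 2.56 and 3.60 in MII, and 3.10 and 4.14 in ‘damaged’. In the untested GV replicate 3 the blood cell markers summed to 28.6. The part of cumulus, granulosa, stroma and blood cells in the results below was not tested.

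Levels are given as normalised CPM per kb, that is, counts scaled to a common library size (CPM) after scaling each library by its TMM factor, divided by the mean effective length of the gene's transcripts in kb (effective length is the stretch on which a read can start). Gene positions are spans in the RefSeq annotation of Sscrofa11.1. For 19 members this span overlaps another RefSeq gene, among them SIRT1, SIRT4, HDAC6, KMT2E, KDM1B and KAT5. The libraries do not keep strand, and the part of reads from overlapping genes was not tested. Fold changes are those of limma-voom. A gene was called differentially expressed (DEG) where its FDR fell below 0.01 and its log2 fold change exceeded 2 in either direction. The scaling matters for these genes. With TMM factors the 13228 genes tested had a median log2 fold change of -0.17 for MII against GV and -0.14 for ‘damaged’ against GV, whereas on library sizes alone it was -1.08 and -1.01. A member's change is therefore a change relative to most other transcripts. Both comparisons use the same 4 GV libraries and are set side by side.

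Among the 63 members tested, 3 were DEGs with a higher level in MII than in GV and 11 with a lower one, against 4.51% and 17.0% of all genes. For ‘damaged’ against GV the members numbered 2 and 11, against 4.08% and 16.4%. At this threshold the enzymes were called about as often as any gene. On library sizes the counts were 0 higher and 15 lower in MII, where 0.363% and 29.4% of all genes were called, and 0 and 14 in ‘damaged’, where 0.340% and 27.7% were. The 11 falls held on that scale. Without GV replicate 5, HDAC1 and SIRT4 were no longer DEGs and only KDM3A remained higher in MII. Without GV replicate 1, HDAC1, KDM4C and SETD9 joined the rises in ‘damaged’ oocytes and brought them to 5, and without GV replicate 4, HDAC1 and KDM4C brought them to 4.

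With no threshold on size, 25 of 63 members (39.7%) were higher in MII, against 28.2% of all genes, and 17 (27.0%) were lower, against 34.2%. In ‘damaged’ oocytes 26 (41.3%) were higher, against 28.0%, and 17 (27.0%) lower, against 33.4%. These shares of all genes also apply to the counts by family below. The median log2 fold change of the members was 0.29 in MII and 0.36 in ‘damaged’ oocytes. On library sizes 8 members were higher and 31 lower in MII, against 11.0% and 57.5% of all genes, and 7 and 31 in ‘damaged’ oocytes, against 11.2% and 55.9%. The 8 were HDAC1, KAT6B, KDM3A, KDM3B, KDM4C, SETDB1, SIRT1 and SIRT4, and all of them but SETDB1 made up the 7. Every other member called higher with TMM factors was not called higher on library sizes. All 5 MII libraries lay above all 4 GV libraries for 27 members (42.9%), against 27.0% of all genes, and below them for 14 (22.2%), against 33.0%. For ‘damaged’ libraries the numbers were 25 (39.7%), against 26.6% of all genes, and 17 (27.0%), against 31.8%. The 14 members called in either comparison had the untested GV replicate 3 on the GV side too, above every MII and ‘damaged’ library for the 11 falls and below every one for the 3 rises.

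**Figure D1:**
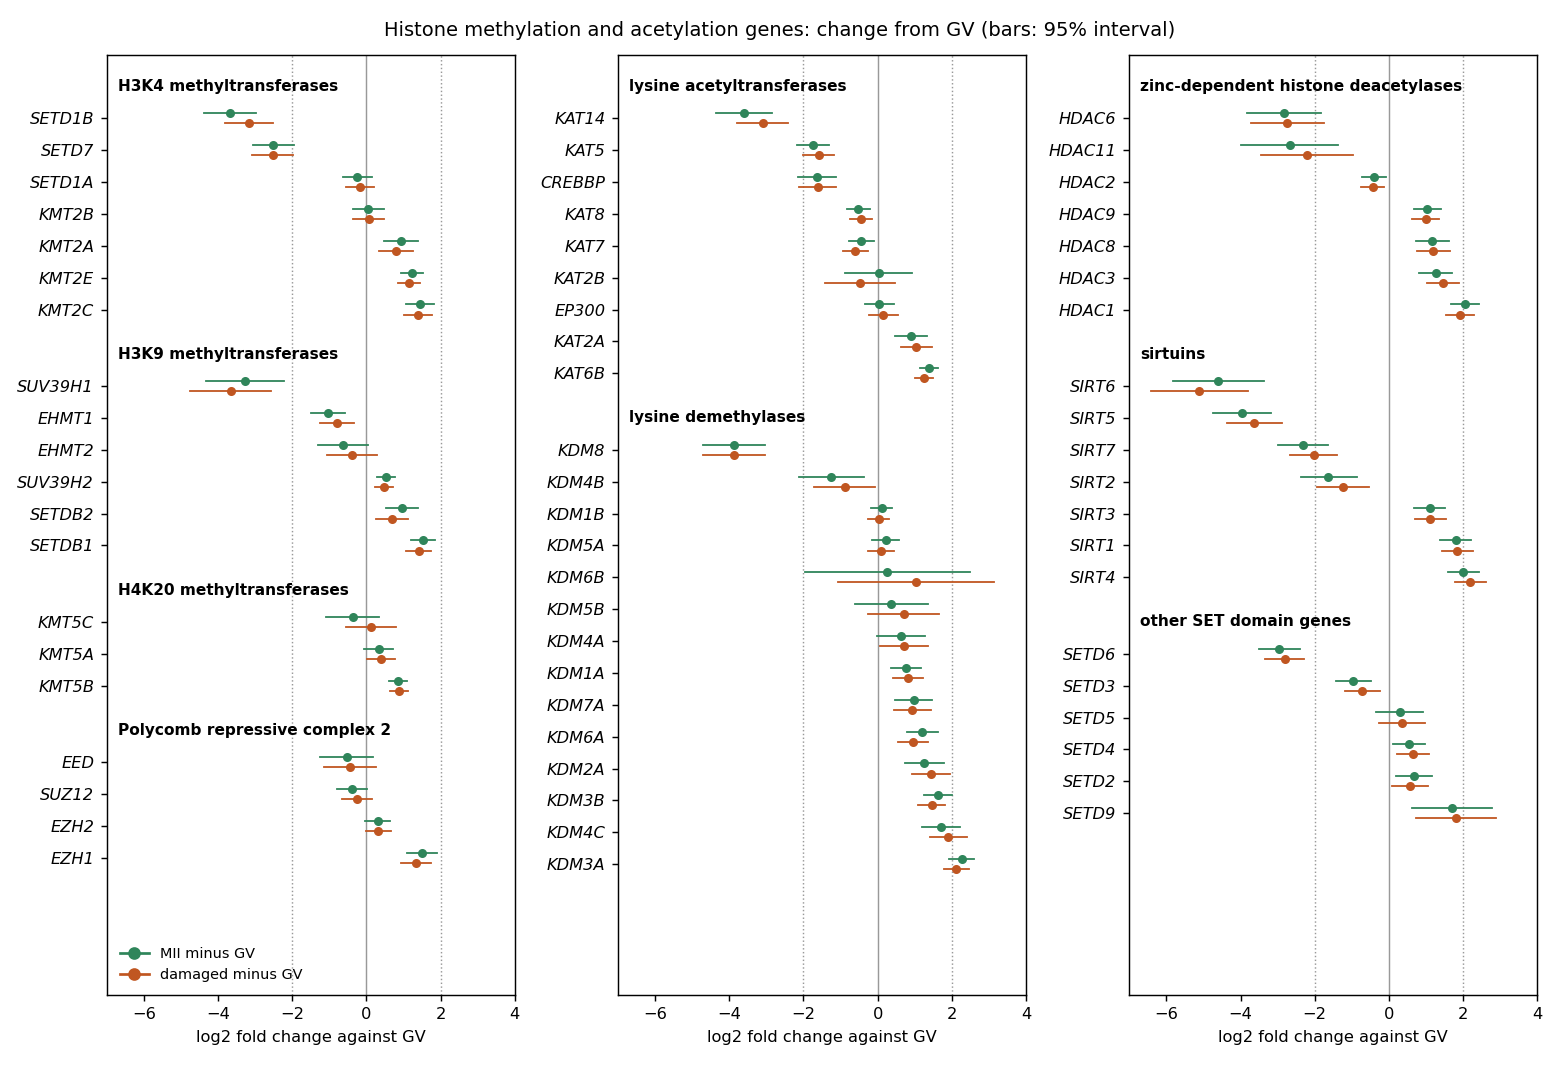
Log2 fold change of the 63 tested members against GV (x axis, TMM scaling), in MII (green) and ‘damaged’ oocytes (orange), by role and with 95% intervals. Within most role groups some genes lie far left and others right of 0, the 11 falls beyond 2 among them, and on library sizes, which the plot does not show, 17 members change sign in each comparison.

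Sirtuins, deacetylases that consume NAD, split widely. All 7 passed the test in both comparisons, with SIRT1, SIRT3 and SIRT4 higher and SIRT2, SIRT5, SIRT6 and SIRT7 lower, and these directions held on library sizes, where SIRT3 no longer passed. Of all genes, 28.2% were higher and 34.2% lower in MII, and 28.0% and 33.4% in ‘damaged’ oocytes. The median log2 fold change of the family was -1.63 in MII and -1.23 in ‘damaged’ oocytes.

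SIRT6, a chromatin deacetylase of H3K9 with a role in DNA repair (chr2:74568539-74577774), had the largest fall of all members. SIRT6 measured 1.29, 2.77, 1.92 and 3.23 normalised CPM per kb in GV, 0.187, 0.0576, 0, 0.105 and 0.082 in MII and 0.1, 0, 0.092, 0 and 0.102 in ‘damaged’ libraries. No GV library came near any other library, and 3 of the 10 matured libraries held none. SIRT6 had a log2 fold change of -4.60 in MII (SE 0.584, FDR 7.70e-07) and -5.12 in ‘damaged’ oocytes (SE 0.624, FDR 4.72e-07). Because no matured library held more than 2.87 estimated counts of SIRT6, the size of the fitted change depends on the small count that voom adds.

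SIRT5, which removes succinyl and malonyl groups in mitochondria (chr7:9951024-9968004), also fell to a small part of its GV level. For SIRT5, GV libraries measured 4.06, 6.29, 4.57 and 6.18 normalised CPM per kb, MII libraries 0.581, 0.311, 0.158, 0.217 and 0.436 and ‘damaged’ libraries 0.311, 0.333, 0.87, 0.393 and 0.225. The groups were far apart, with ‘damaged’ replicate 3 the highest of the matured libraries. Against GV, the log2 fold change was -3.96 in MII (SE 0.376, FDR 1.48e-08) and -3.63 in ‘damaged’ oocytes (SE 0.356, FDR 2.46e-08). These sizes rest on few counts, between 2.16 and 7.41 estimated counts of SIRT5 in MII and between 3.54 and 15.2 in ‘damaged’ libraries. SIRT7, the nucleolar sirtuin (chr12:1078155-1084112), fell less. SIRT7 stood at 5.61, 7.12, 7.76 and 11.9 normalised CPM per kb in the GV libraries, at 2.38, 1.37, 1.4, 1.22 and 1.8 in the MII libraries and at 1.59, 0.832, 2.46, 1.86 and 3.75 in the ‘damaged’ libraries. Its matured libraries all stayed below the lowest GV library. This gave a log2 fold change of -2.31 in MII (SE 0.318, FDR 2.20e-06) and -2.03 in ‘damaged’ oocytes (SE 0.308, FDR 7.43e-06). In ‘damaged’ oocytes SIRT7 stood close to the threshold on size and was no DEG by edgeR (-1.94), by DESeq2 (-1.91), without the filter (-1.99), on summed counts (-1.97), or without GV replicate 5 (-1.82), ‘damaged’ replicate 1 (-1.98) or ‘damaged’ replicate 2 (-1.76). SIRT2, mainly a cytoplasmic tubulin deacetylase, stood at a log2 fold change of -1.63 in MII (FDR 4.73e-04) and -1.23 in ‘damaged’ oocytes (FDR 0.00286).

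SIRT4, a mitochondrial sirtuin with weak deacetylase activity (chr14:40290288-40303887), went the other way. SIRT4 measured 4.41, 3.2, 3.44 and 2.39 normalised CPM per kb in GV, 11.5, 15.3, 11, 15.6 and 12.9 in MII and 12.8, 15.6, 17.1, 16.9 and 13.2 in ‘damaged’ libraries. Every matured library held more than every GV library. The fitted log2 fold change against GV was 2.01 in MII (SE 0.2, FDR 2.76e-08) and 2.20 in ‘damaged’ oocytes (SE 0.198, FDR 7.11e-09). SIRT1, the nuclear deacetylase of histones and p53 (chr14:71091167-71126351), was the most abundant sirtuin in GV oocytes. For SIRT1, GV libraries measured 10.6, 12.2, 14.9 and 10.4 normalised CPM per kb, MII libraries 53.2, 39.1, 26.5, 55.6 and 39.1 and ‘damaged’ libraries 48.6, 55.8, 34.8, 41.9 and 36.3. Matured libraries were all higher than GV libraries, with a wide spread within MII. The log2 fold change of SIRT1 was 1.80 in MII (SE 0.204, FDR 1.74e-07) and 1.84 in ‘damaged’ oocytes (SE 0.203, FDR 1.21e-07). SIRT3, the main mitochondrial deacetylase, had a log2 fold change of 1.10 in MII (FDR 4.90e-05) and 1.12 in ‘damaged’ oocytes (FDR 3.87e-05).

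Zinc-dependent histone deacetylases, the other class of acetyl removers, had 7 of 11 members tested. Of these, HDAC1, HDAC3, HDAC8 and HDAC9 were higher in both comparisons, and HDAC6 and HDAC11 were lower. On library sizes only HDAC1 of these rises still passed, while HDAC3 was at 0.35 in MII (FDR 0.156), HDAC8 at 0.25 (FDR 0.264) and HDAC9 at 0.12 (FDR 0.478). The family median was a log2 fold change of 1.04 in MII and 0.99 in ‘damaged’ oocytes.

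HDAC1, the catalytic subunit of the NuRD, Sin3 and CoREST complexes (chr6:88749611-88785220), rose most. HDAC1 stood at 4.05, 3.06, 4.13 and 3.09 normalised CPM per kb in the GV libraries, at 12.9, 15.9, 16.1, 13.1 and 16 in the MII libraries and at 14, 12.2, 18.5, 12.2 and 11.4 in the ‘damaged’ libraries. GV and matured libraries did not overlap. HDAC1 had a log2 fold change of 2.05 in MII (SE 0.181, FDR 5.34e-09) and 1.92 in ‘damaged’ oocytes (SE 0.182, FDR 1.42e-08). It passed the threshold on size only in MII, and the difference between MII and ‘damaged’ oocytes was 0.13 (95% interval -0.20 to 0.45).

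HDAC2, its close paralogue in the same complexes (chr1:79867713-79901597), was the most abundant of the class in GV oocytes and did not follow. HDAC2 measured 19.8, 19.1, 18.6 and 18.7 normalised CPM per kb in GV, 15, 18.6, 15.4, 12.6 and 11.7 in MII and 11.3, 12.3, 15.8, 15.6 and 16 in ‘damaged’ libraries. The MII libraries overlapped the GV libraries, and the ‘damaged’ libraries lay below the 4 tested ones, while the untested GV replicate 3 stood at 10.7. Against GV, the log2 fold change was -0.40 in MII (SE 0.152, FDR 0.0237) and -0.43 in ‘damaged’ oocytes (SE 0.152, FDR 0.0158). Neither passed an FDR of 0.01 here, while on library sizes and on summed counts both did, as lower. HDAC1 stood at 3.58 ± 0.584 (SD, n = 4) in GV and HDAC2 at 19.0 ± 0.538, whereas in MII both were close, at 14.8 ± 1.66 and 14.7 ± 2.71 (SD, n = 5).

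HDAC6, the cytoplasmic tubulin deacetylase (chrX:42917911-42941894), was low and fell further. For HDAC6, GV libraries measured 0.621, 0.661, 0.49 and 0.786 normalised CPM per kb, MII libraries 0.0599, 0.101, 0.102, 0.0839 and 0.059 and ‘damaged’ libraries 0.0481, 0.0481, 0.0192, 0.284 and 0.254. Its ‘damaged’ libraries fell into 3 very low ones and 2 higher ones, all under the GV level. This gave a log2 fold change of -2.83 in MII (SE 0.479, FDR 2.77e-05) and -2.75 in ‘damaged’ oocytes (SE 0.471, FDR 3.26e-05). These sizes rest on 2.12 to 5.29 estimated counts in MII and 1.06 to 14.8 in ‘damaged’ libraries. HDAC11, the only class IV enzyme (chr13:70860650-70879863), rested on 9.4 to 27 estimated counts in the GV libraries. HDAC11 stood at 0.226, 0.299, 0.393 and 0.528 normalised CPM per kb in the GV libraries, at 0.0402, 0.074, 0.0416, 0 and 0.158 in the MII libraries and at 0.0646, 0, 0.103, 0.0898 and 0.131 in the ‘damaged’ libraries. The groups did not overlap, and 1 MII and 1 ‘damaged’ library held none. The fitted log2 fold change against GV was -2.67 in MII (SE 0.627, FDR 8.09e-04) and -2.20 in ‘damaged’ oocytes (SE 0.593, FDR 0.00258). In ‘damaged’ oocytes HDAC11 was no DEG without GV replicate 5 (-1.98) or ‘damaged’ replicate 2 (-1.71). HDAC3, the catalytic subunit of the NCoR and SMRT complexes, had a log2 fold change of 1.26 in MII (FDR 2.48e-05) and 1.46 in ‘damaged’ oocytes (FDR 4.16e-06), HDAC8 of 1.17 in MII (FDR 7.13e-05) and 1.20 in ‘damaged’ oocytes (FDR 5.28e-05) and HDAC9 of 1.04 in MII (FDR 2.44e-05) and 0.99 in ‘damaged’ oocytes (FDR 4.59e-05).

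Lysine acetyltransferases write what these enzymes remove. Of 9 tested, 2 were higher and 4 lower in each comparison, and the median log2 fold change was -0.44 in MII and -0.47 in ‘damaged’ oocytes. Over all genes, 28.2% were higher and 34.2% lower in MII, and 28.0% and 33.4% in ‘damaged’ oocytes. The 4 lower acetyltransferases in MII were KAT14, KAT5, CREBBP and KAT8, and in ‘damaged’ oocytes KAT7 took the place of KAT8.

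KAT14, a subunit of the ATAC complex (chr17:26484957-26521532), was the DEG of the family. KAT14 measured 1.83, 2.76, 2.3 and 2.8 normalised CPM per kb in GV, 0.33, 0.344, 0.0536, 0.203 and 0.173 in MII and 0.371, 0.264, 0.359, 0.156 and 0.257 in ‘damaged’ libraries. All matured libraries lay far under the GV libraries. The log2 fold change of KAT14 was -3.60 in MII (SE 0.364, FDR 3.51e-08) and -3.10 in ‘damaged’ oocytes (SE 0.332, FDR 8.16e-08). Matured libraries held between 1.97 and 16.8 estimated counts of KAT14. KAT14 shares its locus in RefSeq with PET117, and reads of the overlap cannot be told apart by strand.

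KAT8, the H4K16 acetyltransferase of the MSL and NSL complexes (chr3:17362326-17373110), was the most abundant member of the family in GV oocytes. For KAT8, GV libraries measured 43.7, 32.3, 39.9 and 39.4 normalised CPM per kb, MII libraries 26.2, 25.7, 25.2, 23.9 and 34.8 and ‘damaged’ libraries 31.2, 23.4, 30.9, 29.9 and 27.4. MII replicate 5 alone among the MII libraries reached into the range of the tested GV libraries. The untested GV replicate 3 stood at 29.2, among the matured libraries. KAT8 had a log2 fold change of -0.52 in MII (SE 0.146, FDR 0.00361) and -0.44 in ‘damaged’ oocytes (SE 0.145, FDR 0.0111). KAT5, the catalytic subunit of the NuA4 complex, had a log2 fold change of -1.75 in MII (FDR 2.44e-07) and -1.58 in ‘damaged’ oocytes (FDR 7.00e-07). For CREBBP, a transcriptional co-activator, it was -1.63 in MII (FDR 5.96e-06) and -1.61 in ‘damaged’ oocytes (FDR 6.67e-06), and for its paralogue EP300 0.04 in MII (FDR 0.846) and 0.15 in ‘damaged’ oocytes (FDR 0.474). KAT6B and KAT2A were the rises, at 1.38 in MII (FDR 3.12e-09) and 1.26 in ‘damaged’ oocytes (FDR 1.20e-08) for KAT6B and 0.90 in MII (FDR 5.43e-04) and 1.04 in ‘damaged’ oocytes (FDR 1.27e-04) for KAT2A, where on library sizes KAT2A lay at -0.01 in MII and EP300 at -0.86 in MII and -0.71 in ‘damaged’ oocytes.

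Methyltransferases of H3K4 included a pair of DEGs, SETD1B and SETD7, both lower, and 3 higher genes, KMT2A, KMT2C and KMT2E, none of which passed on library sizes, where KMT2A turned to -0.07 in ‘damaged’ oocytes. SETD1B is a catalytic subunit of a COMPASS complex (chr14:30862155-30885592). SETD1B stood at 0.875, 1.4, 1.1 and 1.8 normalised CPM per kb in the GV libraries, at 0.0839, 0.068, 0.185, 0.0537 and 0.137 in the MII libraries and at 0.144, 0.115, 0.146, 0.162 and 0.111 in the ‘damaged’ libraries. Its GV libraries all exceeded the matured ones severalfold. Against GV, the log2 fold change was -3.68 in MII (SE 0.337, FDR 8.79e-09) and -3.17 in ‘damaged’ oocytes (SE 0.307, FDR 1.98e-08). The paralogue SETD1A, with the same function, did not pass the test, at -0.24 in MII (FDR 0.245) and -0.18 in ‘damaged’ oocytes (FDR 0.397). SETD7 methylates H3K4 once and many other proteins (chr8:87478266-87527190). SETD7 measured 0.66, 0.779, 1.21 and 0.949 normalised CPM per kb in GV, 0.191, 0.142, 0.166, 0.168 and 0.107 in MII and 0.153, 0.175, 0.131, 0.166 and 0.125 in ‘damaged’ libraries. The groups lay apart, with little spread among matured libraries. This gave a log2 fold change of -2.51 in MII (SE 0.26, FDR 5.01e-08) and -2.53 in ‘damaged’ oocytes (SE 0.259, FDR 4.48e-08).

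KMT2E, a trithorax relative thought to lack enzyme activity (chr9:104876301-105007161), had the highest level of this family in GV oocytes. For KMT2E, GV libraries measured 8.89, 12.1, 9.64 and 12.8 normalised CPM per kb, MII libraries 30.4, 26.1, 23.3, 22.1 and 25.8 and ‘damaged’ libraries 22.8, 22.3, 21.4, 25.7 and 28.6. Every matured library exceeded every GV library. The fitted log2 fold change against GV was 1.24 in MII (SE 0.144, FDR 2.49e-07) and 1.16 in ‘damaged’ oocytes (SE 0.144, FDR 6.25e-07). On library sizes KMT2E kept its direction, at 0.33 in MII, and no longer passed. KMT2C and KMT2A had log2 fold changes of 1.45 in MII (FDR 4.51e-07) and 1.39 in ‘damaged’ oocytes (FDR 8.02e-07) and of 0.94 in MII (FDR 8.52e-04) and 0.80 in ‘damaged’ oocytes (FDR 0.00338). KMT2B, which is needed for H3K4 methylation in growing oocytes, stood at 0.05 in MII (FDR 0.821) and 0.07 in ‘damaged’ oocytes (FDR 0.782), and on library sizes at -0.85 and -0.80.

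The H3K9 methyltransferases SUV39H1 and SUV39H2 are paralogues that add the methyl groups of constitutive heterochromatin. SUV39H1 (chrX:42797309-42811457) was scarce in GV oocytes, with 21.6 to 40.5 estimated counts. SUV39H1 stood at 0.437, 0.396, 0.506 and 0.601 normalised CPM per kb in the GV libraries, at 0.0988, 0.0272, 0, 0.057 and 0.0668 in the MII libraries and at 0, 0.0817, 0.0435, 0.023 and 0.024 in the ‘damaged’ libraries. It was nearly absent from matured libraries, none of which held more than 3.01 estimated counts. The log2 fold change of SUV39H1 was -3.27 in MII (SE 0.499, FDR 8.08e-06) and -3.66 in ‘damaged’ oocytes (SE 0.526, FDR 3.92e-06). SUV39H2 (chr10:46874606-46900058) was the most abundant of all 63 members in each group. SUV39H2 measured 61, 61.9, 55 and 50.8 normalised CPM per kb in GV, 90.1, 82.3, 79.9, 88.5 and 74.8 in MII and 71, 84.5, 86.3, 83.6 and 73.5 in ‘damaged’ libraries. Matured libraries lay above GV libraries on this scale. SUV39H2 had a log2 fold change of 0.54 in MII (SE 0.117, FDR 3.58e-04) and 0.48 in ‘damaged’ oocytes (SE 0.117, FDR 0.00107). On library sizes the direction of SUV39H2 turned, to -0.37 in MII and -0.39 in ‘damaged’ oocytes, and that of SUV39H1 did not. In TPM, which applies no such factor, SUV39H2 was at 132 ± 16 (SD, n = 4) in GV, 92.9 ± 6.51 (SD, n = 5) in MII and 92.5 ± 9.89 (SD, n = 5) in ‘damaged’ oocytes, and SUV39H1 at 1.15 ± 0.366, 0.0547 and 0.0398. The euchromatic H3K9 enzyme EHMT1 had a log2 fold change of -1.03 in MII (FDR 3.80e-04) and -0.80 in ‘damaged’ oocytes (FDR 0.0031), and its partner EHMT2, which did not pass, of -0.63 in MII (FDR 0.0911) and -0.39 in ‘damaged’ oocytes (FDR 0.289).

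**Figure D2:**
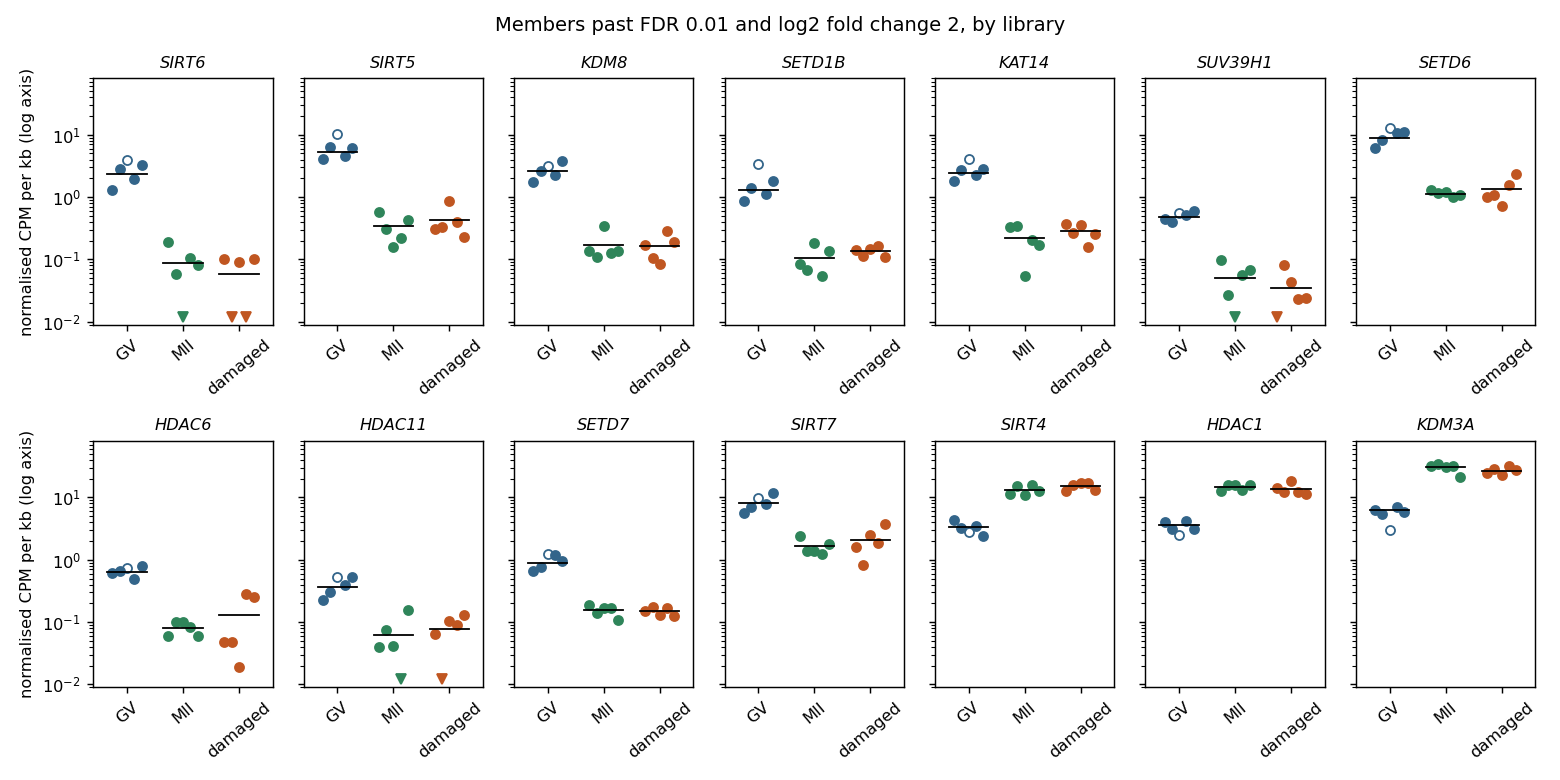
Normalised CPM per kb (log axis) in each library for the 14 members called in MII or ‘damaged’ against GV, ordered from the largest fall to the largest rise. Points are libraries, black lines means, open points the untested GV replicate 3 and triangles at the bottom libraries at 0, and in every panel the GV points lie apart from the MII and ‘damaged’ points.

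SETDB1, which silences transposons through H3K9 methylation (chr4:98259801-98293238), was not a DEG, and is shown by library because its values, once seen, differed between ways of counting. For SETDB1, GV libraries measured 21.9, 24.6, 23.9 and 28.1 normalised CPM per kb, MII libraries 71.3, 72.4, 76.2, 67.2 and 68.9 and ‘damaged’ libraries 66.8, 70.2, 43, 73.5 and 79.2. At the gene level matured libraries were all higher. Against GV, the log2 fold change was 1.53 in MII (SE 0.157, FDR 4.22e-08) and 1.41 in ‘damaged’ oocytes (SE 0.157, FDR 1.45e-07). On library sizes SETDB1 was at 0.62 in MII and 0.53 in ‘damaged’ oocytes, where it no longer passed (FDR 0.0125). The annotated transcripts behind that level were not the same ones. SETDB1 has 4 annotated transcripts, of which 3 were tested. Those with effective lengths of 4489 and 4698 bases together made up all SETDB1 TPM in the 4 GV libraries tested and, at 93.7 and 3.48%, most of it in GV replicate 3, and an isoform of 909 bases had 0 estimated counts in all 5 GV libraries. In MII the short isoform held 662, 837, 848, 1096 and 967 estimated counts, and in ‘damaged’ oocytes 767, 801, 597, 991 and 1020. It took 94.7 ± 1.01% of SETDB1 TPM in MII (SD, n = 5) and 93.7 ± 1.25% in ‘damaged’ oocytes (SD, n = 5).

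The long isoforms of SETDB1 together held 1979, 2162, 2281 and 3064 estimated counts in the GV libraries tested. In MII they held 148, 203, 309, 311 and 218, and in ‘damaged’ oocytes 205, 247, 276, 326 and 335. Their TPM went from 58.1 ± 15.2 in GV (SD, n = 4) to 4.06 ± 1.27 in MII and 4.77 ± 1.12 in ‘damaged’ oocytes (SD, n = 5 each). The gain of the short isoform in MIX, that is MII and ‘damaged’ libraries together, was 94.2 percentage points (FDR 2.84e-270 by the DEXSeq model in DESeq2). Gene counts made from TPM weigh a short isoform by the mean length of the gene. When Kallisto counts were instead summed per gene, the fold change of SETDB1 turned to -0.48 in MII (FDR 0.00534) and -0.57 in ‘damaged’ oocytes (FDR 0.00159). It was the only tested member whose direction differed between these counts, in either comparison. SETDB1 overlaps CERS2 in RefSeq, the libraries do not keep strand, and CERS2 lay between 34.5 and 39.8 normalised CPM per kb in GV, 44.1 and 63.8 in MII and 52.6 and 64.0 in ‘damaged’ libraries. The part of CERS2 reads in the short isoform was not tested.

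**Figure D3:**
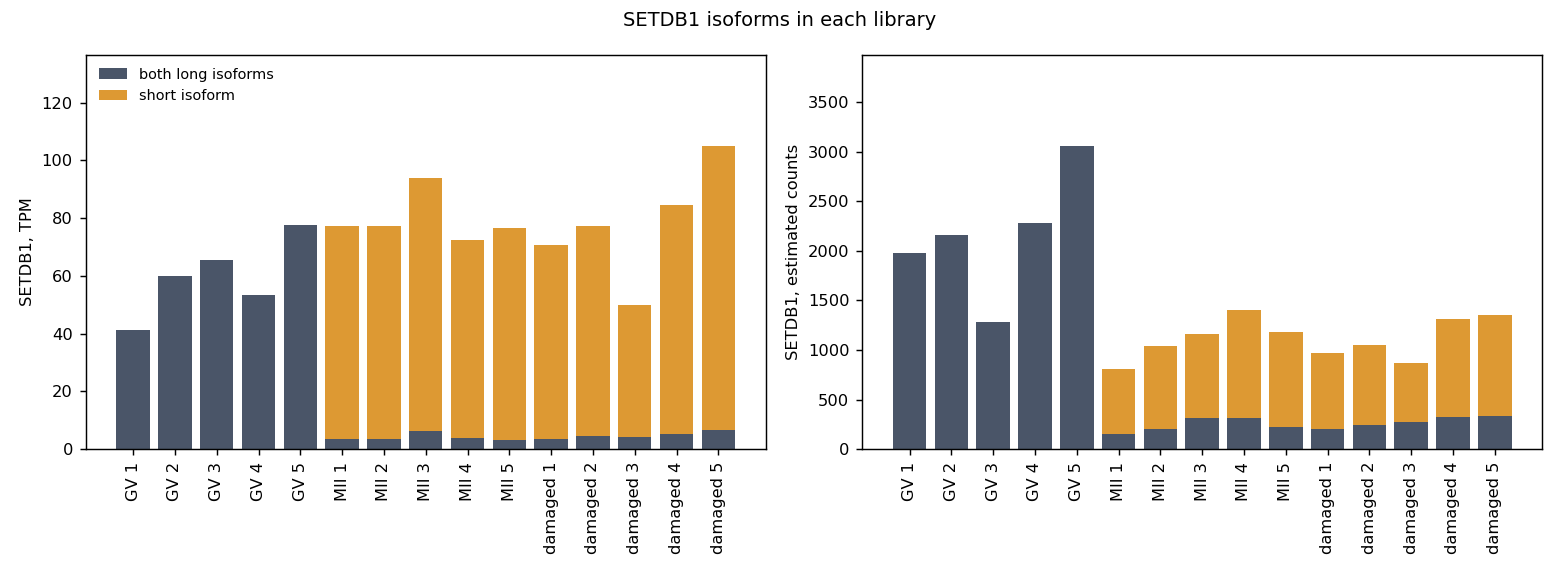
SETDB1 in each library as TPM (left) and as estimated counts (right), stacked from the 2 long isoforms (grey) and the short isoform of 909 bases (orange), without the fourth transcript. The 5 GV bars are wholly grey, and in the 10 MII and ‘damaged’ bars the long isoforms fall to between 3.27 and 6.45 TPM while the short isoform makes up most of the bar.

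SETDB2, the related gene (chr11:18252525-18298234), changed isoform as well. SETDB2 overlaps CAB39L and a pseudogene in RefSeq, and the part of their reads in its isoforms was not tested. Its isoform of 1816 bases took 4.13, 0, 0 and 0% of SETDB2 TPM in the GV libraries. In MII the share was 80.8, 74.0, 72.0, 71.4 and 90.6%, and in ‘damaged’ oocytes 66.3, 87.7, 69.4, 77.1 and 81.7%. No matured library came near the GV range. The gain was 77.2 percentage points (FDR 2.13e-34), and the gene had a log2 fold change of 0.97 in MII (FDR 3.07e-04) and 0.70 in ‘damaged’ oocytes (FDR 0.00569), which on library sizes was 0.06 and -0.18.

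Of the H4K20 methyltransferases 1 of 3 changed. KMT5B, which adds the second methyl group (chr2:4710510-4768237), was among the most abundant members. KMT5B stood at 33.1, 33.4, 32.3 and 32.5 normalised CPM per kb in the GV libraries, at 65.1, 63.7, 55.2, 61.1 and 52.5 in the MII libraries and at 57.8, 61.3, 54.3, 60.5 and 68.2 in the ‘damaged’ libraries. GV libraries were tightly grouped and all under the matured ones. This gave a log2 fold change of 0.85 in MII (SE 0.117, FDR 2.11e-06) and 0.88 in ‘damaged’ oocytes (SE 0.117, FDR 1.50e-06). On library sizes this rise was not seen, at -0.06 in MII and 0.00 in ‘damaged’ oocytes. KMT5A and KMT5C did not pass the test, at 0.34 in MII (FDR 0.107) and 0.40 in ‘damaged’ oocytes (FDR 0.0577) and -0.37 in MII (FDR 0.336) and 0.12 in ‘damaged’ oocytes (FDR 0.754), and on library sizes KMT5A was at -0.57 and -0.46 and KMT5C at -1.26 and -0.73.

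Polycomb repressive complex 2, which methylates H3K27, had 1 of 4 core genes past an FDR of 0.01. EZH2, the main catalytic subunit (chr9:109384976-109450943), had the highest level. EZH2 measured 17.4, 18, 17.6 and 16.4 normalised CPM per kb in GV, 26.7, 23.1, 16.7, 23.9 and 18.5 in MII and 17.7, 23, 17.7, 28 and 23.6 in ‘damaged’ libraries. The groups overlapped. The fitted log2 fold change against GV was 0.31 in MII (SE 0.164, FDR 0.0997) and 0.32 in ‘damaged’ oocytes (SE 0.163, FDR 0.0842). On library sizes the sign of EZH2 turned, at -0.60 in MII and -0.55 in ‘damaged’ oocytes, where it passed as lower. EZH1, the alternative catalytic subunit, passed as higher, at 1.50 in MII (FDR 9.56e-07) and 1.33 in ‘damaged’ oocytes (FDR 4.74e-06). The scaffolds EED and SUZ12 did not, at -0.53 in MII (FDR 0.174) and -0.44 in ‘damaged’ oocytes (FDR 0.252) and -0.39 in MII (FDR 0.0815) and -0.25 in ‘damaged’ oocytes (FDR 0.26). On library sizes EZH1 no longer passed, at 0.59 in MII (FDR 0.0228) and 0.47 in ‘damaged’ oocytes (FDR 0.069), whereas EED (-1.46 and -1.31) and SUZ12 (-1.29 and -1.11) passed as lower.

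Among the remaining SET domain genes SETD6 was the DEG. SETD6 methylates non-histone proteins such as RELA (chr6:20266540-20270709). For SETD6, GV libraries measured 6.18, 8.1, 10.5 and 11.1 normalised CPM per kb, MII libraries 1.28, 1.14, 1.21, 0.992 and 1.07 and ‘damaged’ libraries 1, 1.08, 0.727, 1.58 and 2.36. GV libraries all exceeded the others, and ‘damaged’ replicate 5 was the highest matured library. The log2 fold change of SETD6 was -2.95 in MII (SE 0.261, FDR 5.32e-09) and -2.81 in ‘damaged’ oocytes (SE 0.256, FDR 8.40e-09). SETD3, an actin histidine methyltransferase (chr7:120412545-120486687), was the most abundant of the group in GV oocytes. SETD3 stood at 7.02, 13, 10.9 and 16.8 normalised CPM per kb in the GV libraries, at 8.01, 5.81, 5.23, 5.78 and 5.14 in the MII libraries and at 7.44, 7.25, 4.82, 7.75 and 8.16 in the ‘damaged’ libraries. Its GV values varied widely, and GV replicate 1 lay among the matured libraries. SETD3 had a log2 fold change of -0.96 in MII (SE 0.226, FDR 8.48e-04) and -0.72 in ‘damaged’ oocytes (SE 0.222, FDR 0.00732). SETD2, which writes H3K36 methylation, did not pass the test, at 0.67 in MII (FDR 0.013) and 0.57 in ‘damaged’ oocytes (FDR 0.0317), and turned to -0.24 and -0.30 on library sizes. SETD9 had 1.70 in MII (FDR 0.00622) and 1.81 in ‘damaged’ oocytes (FDR 0.00388), and on library sizes did not pass (FDR 0.19 and 0.121).

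Of 14 lysine demethylases tested, 7 were higher and 1 lower in each comparison, with a median log2 fold change of 0.70 in MII and 0.88 in ‘damaged’ oocytes. Over all genes, 28.2% were higher and 34.2% lower in MII, and 28.0% and 33.4% in ‘damaged’ oocytes. On library sizes 3 demethylases were higher and 4 lower in each comparison. All genes then had 11.0% higher and 57.5% lower in MII, and 11.2% and 55.9% in ‘damaged’ oocytes. KDM3A, which removes methyl groups from H3K9 (chr3:58300109-58355000), was the DEG that rose. KDM3A measured 6.39, 5.49, 7.03 and 5.85 normalised CPM per kb in GV, 32.5, 34.8, 30.3, 32.3 and 21.2 in MII and 24.3, 28.9, 23.2, 31.4 and 27.1 in ‘damaged’ libraries. The matured libraries lay far above the GV libraries. Against GV, the log2 fold change was 2.27 in MII (SE 0.16, FDR 2.59e-10) and 2.12 in ‘damaged’ oocytes (SE 0.161, FDR 6.93e-10). On library sizes the rise of KDM3A was 1.35 in MII. Its paralogue KDM3B had a log2 fold change of 1.63 in MII (FDR 7.99e-08) and 1.46 in ‘damaged’ oocytes (FDR 4.02e-07), and KDM4C, an H3K9 and H3K36 demethylase, of 1.70 in MII (FDR 4.37e-06) and 1.91 in ‘damaged’ oocytes (FDR 8.96e-07).

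KDM8, a JmjC dioxygenase (chr3:19653396-19676207), was the demethylase that fell. For KDM8, GV libraries measured 1.73, 2.6, 2.29 and 3.72 normalised CPM per kb, MII libraries 0.134, 0.108, 0.339, 0.125 and 0.137 and ‘damaged’ libraries 0.168, 0.107, 0.0857, 0.282 and 0.189. The GV libraries stood far above the rest. This gave a log2 fold change of -3.87 in MII (SE 0.402, FDR 5.14e-08) and -3.86 in ‘damaged’ oocytes (SE 0.4, FDR 5.08e-08). Matured libraries held between 2.48 and 7.71 estimated counts of KDM8, so the size of the fitted change depends in part on the count that voom adds. KDM1B, an H3K4 demethylase required for maternal imprints (chr7:13846283-13902912), was the most abundant demethylase in GV oocytes. KDM1B stood at 15.3, 18.1, 14.9 and 21.9 normalised CPM per kb in the GV libraries, at 21.1, 18.8, 20.2, 18.5 and 16 in the MII libraries and at 18.7, 17.4, 18.6, 16.2 and 17.5 in the ‘damaged’ libraries. Its groups overlapped. The fitted log2 fold change against GV was 0.11 in MII (SE 0.136, FDR 0.465) and 0.03 in ‘damaged’ oocytes (SE 0.137, FDR 0.875). The sign of KDM1B turned on library sizes, at -0.80 in MII and -0.84 in ‘damaged’ oocytes. The H3K27 demethylase KDM6A had a log2 fold change of 1.21 in MII (FDR 1.64e-05) and 0.96 in ‘damaged’ oocytes (FDR 2.35e-04), which on library sizes shrank to 0.29 (FDR 0.167) and 0.08 (FDR 0.721). KDM6B, uneven between libraries, was at 0.26 in MII (FDR 0.836) and 1.03 in ‘damaged’ oocytes (FDR 0.366), and on library sizes at -0.57 and 0.20.

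The order of levels changed between stages. By mean TPM the highest members in GV oocytes were SUV39H2 at 132 ± 16, KAT8 at 89.8 ± 13.4, KMT5B at 76.5 ± 11.7, SETDB1 at 58.1 ± 15.2 and HDAC2 at 44.3 ± 6.13 (SD, n = 4). KMT5B was within 1 SD of KAT8, and HDAC2 within 1 SD of SETDB1. In MII they were SUV39H2 at 92.9 ± 6.51, SETDB1 at 79.8 ± 8.02, KMT5B at 66.4 ± 4.41, SIRT1 at 47.3 ± 11.6 and KDM3A at 33.7 ± 5.64 (SD, n = 5). Most of the SETDB1 level was its short isoform, at 75.5 TPM in MII and 72.8 in ‘damaged’ oocytes. The long isoforms of SETDB1 were at 4.06 and 4.77 TPM. In ‘damaged’ oocytes SUV39H2 at 92.5 ± 9.89, SETDB1 at 77.6 ± 20.2 and KMT5B at 70.4 ± 11.7 (SD, n = 5) led, the other two each within 1 SD of SETDB1, followed by SIRT1 and HDAC3. The median over the 63 members was 7.60 TPM in GV, 3.28 in MII and 3.55 in ‘damaged’ oocytes. TPM applies no TMM factor. On library sizes the members had a median log2 fold change of -0.60 in MII and -0.51 in ‘damaged’ oocytes, against -1.08 and -1.01 for all genes. With TMM factors the members' median was 0.29 and 0.36, so the lower TPM is no fall relative to most other transcripts. Members higher in MII had a median effective length of 3.56 kb, against 2.79 kb for those lower, and all genes higher and lower had 2.84 and 2.42 kb. Members that were higher had a median GV level of 4.47 normalised CPM per kb, those lower 2.42, whereas for all genes it was 10.4 and 4.04.

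At the gene level no member set MII apart from ‘damaged’ oocytes in the tests run. Isoform usage was not tested between these groups. None was called at an FDR under 0.01, as for 0% of all genes (limma-voom), and neither edgeR nor DESeq2 called any gene. At an unadjusted p under 0.05 there were 0 of 63 members, against 1.47% of all genes, and the smallest p in the limma-voom fit was 0.158. Over all genes those tools placed 194, 263 and 251 genes below an unadjusted p of 0.05, respectively for limma-voom, edgeR and DESeq2. With the replicate number as a block in limma-voom, 353 genes lay below it. The smallest FDR in that fit was 0.0236, so no gene was called there either. Whether equal numbers mark 1 collection is unknown, and values of single members in that fit are not given here. The difference, MII minus ‘damaged’, ran from -0.77 (KDM6B) to 0.52 (SIRT6) on the log2 scale with a median of -0.05. For 48 members the 95% interval lay within 1 log2 unit on either side of 0. For the other 15 it reached beyond, so that a difference of that size lies within the error. These were HDAC6, HDAC11, KAT2B, KAT14, KDM4B, KDM5B, KDM6B, KDM8, KMT5C, SETD1B, SIRT2, SIRT5, SIRT6, SIRT7 and SUV39H1, and among them were the falls from GV other than SETD6 and SETD7.

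**Figure D4:**
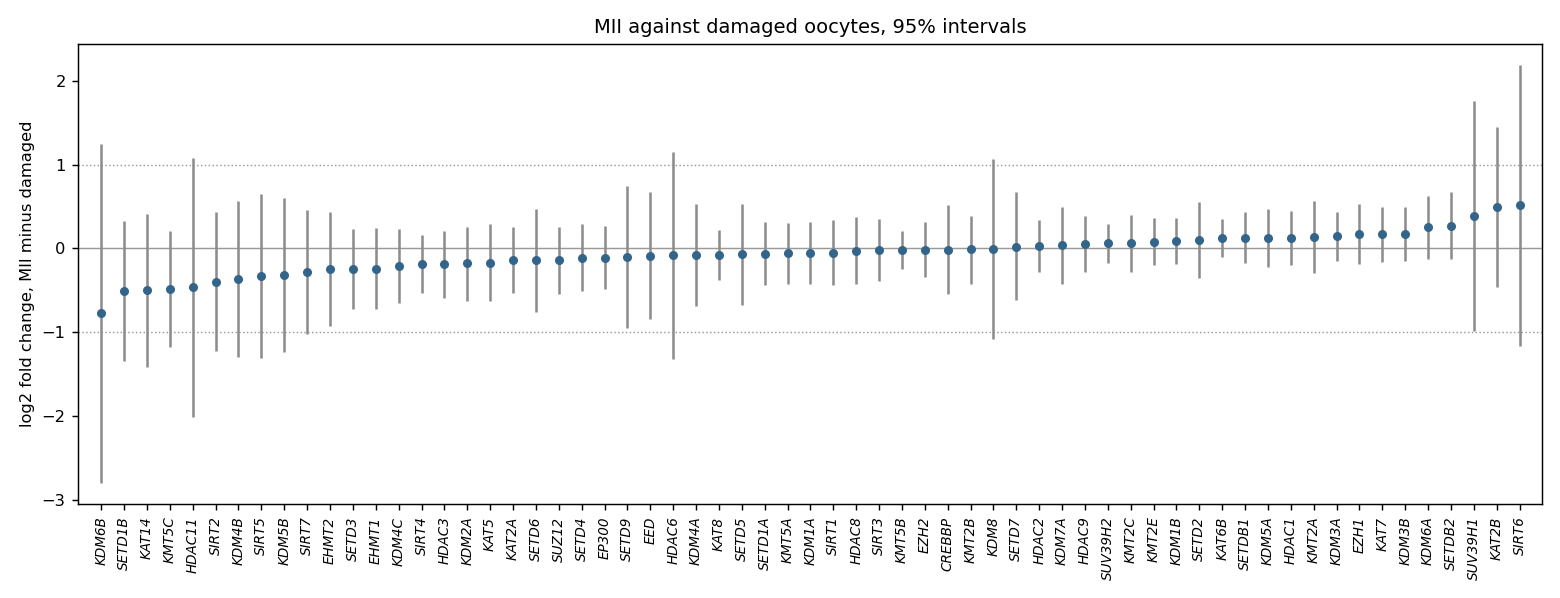
Log2 fold change of MII minus ‘damaged’ oocytes (y axis) for the 63 tested members, sorted, with 95% intervals. All 63 intervals include 0, 48 lie between -1 and 1, and the widest belongs to KDM6B, whose libraries were uneven.

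Isoform usage was compared between MIX and GV for 100 isoforms of 37 members. Of these, 37 isoforms of 17 members were called (FDR under 0.01 and a difference in isoform fraction over 0.1), against 34.0% of all isoforms and 46.7% of all genes tested. Usage of these genes changed about as often as that of all genes. In 10 of the 17 members the isoform with the largest gain was shorter than the one with the largest loss, and in 7 it was longer. Some of these pairs were close in length, such as 6484 and 6519 bases for KDM5A and 8680 and 8602 for EP300. The gain of KDM8 rested on at most 1.73 estimated counts in any library. Lengths were not compared in this way over all genes. The members described here were chosen after their values were seen, SETDB1, SETDB2, KDM8 and HDAC8 as those with the largest differences.

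HDAC2 exchanged isoforms while its gene level did not pass the test. Its isoform of 1491 bases went from 2.01 ± 4.02% of HDAC2 TPM in GV to 62.5 ± 17.5% in MII and 57.0 ± 17.2% in ‘damaged’ oocytes, and that of 6105 bases from 35.5 ± 6.80% to 10.3 ± 0.886% and 9.80 ± 3.08% (FDR 3.97e-10 and 3.36e-21). An isoform of 1506 bases went from 59.9 ± 3.79% to 19.6 ± 16.9% and 22.8 ± 15.7% and was not called (FDR 0.148), and with isoforms of 1491 and 1506 bases so close in length the split between them is uncertain. SUV39H2 also shifted, and its isoform of 3015 bases went from 43.1 ± 11.6% in GV to 83.9 ± 1.52% in MII and 83.0 ± 2.95% in ‘damaged’ oocytes (FDR 5.89e-25). For KDM2A the isoform of 2442 bases rose from 20.4 ± 6.53% to 82.3 ± 5.41% and 82.2 ± 5.74% (FDR 3.08e-20). For KDM4C the isoform of 3204 bases went from 2.77 ± 3.51% to 44.2 ± 14.9% and 39.7 ± 13.4% (FDR 4.94e-26).

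HDAC8 went the other way in length. Its isoform of 1689 bases held 21.8, 15.4, 43.9 and 39.9% of HDAC8 TPM in the GV libraries. In MII it held 69.1, 100, 99.5, 88.3 and 93.4%, and in ‘damaged’ oocytes 98.9, 99.3, 99.7, 99.6 and 99.7%. The groups did not overlap (FDR 7.44e-07), and the counts were small, between 11.2 and 32.6 in GV and between 44.7 and 151 in MII. KDM8 was called too, but its matured libraries held few counts and the shares jumped between 0 and 100% from library to library. The EZH2 isoform of 2296 bases went from 0.98 ± 1.96% to 29.3 ± 6.19% in MII and 28.3 ± 9.06% in ‘damaged’ oocytes (FDR 7.26e-11).

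**Figure D5:**
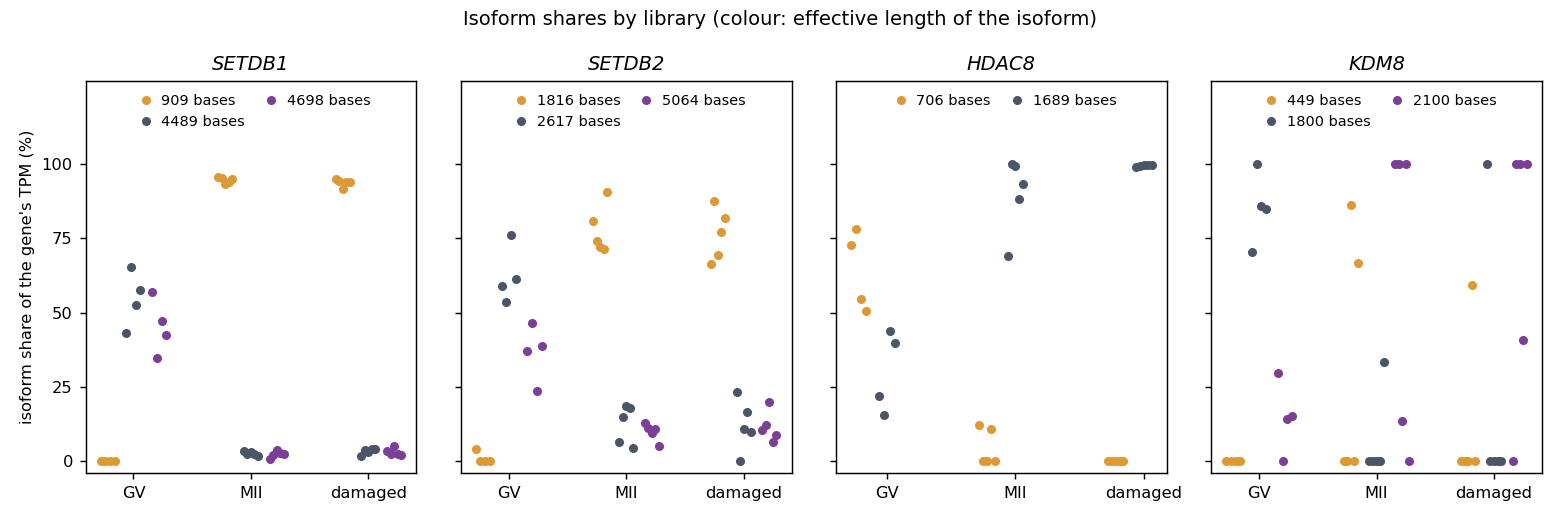
Share of each isoform in its gene's TPM (y axis, %) in the 14 tested libraries for SETDB1, SETDB2, HDAC8 and KDM8, with isoforms coloured by effective length. MII and ‘damaged’ points lie together in the first 3 panels and apart from the GV points, while KDM8 points jump between 0 and 100%.

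Partner genes of the same complexes changed in both directions too. Of 85 listed genes, 75 were tested, and 24 were higher and 22 lower in MII, and 25 and 20 in ‘damaged’ oocytes, with 4 and 8 DEGs in MII and 4 and 6 in ‘damaged’ oocytes. Of all genes, 28.2% were higher and 34.2% lower in MII and 28.0% and 33.4% in ‘damaged’ oocytes, and as DEGs 4.51% and 17.0%, and 4.08% and 16.4%. The median log2 fold change was 0.21 and 0.22. On library sizes 12 of the 75 partners were higher and 41 lower in MII, and 12 and 42 in ‘damaged’ oocytes. All genes then had 11.0% higher and 57.5% lower in MII, and 11.2% and 55.9% in ‘damaged’ oocytes. On either scale the partners changed at shares near those of all genes. The largest falls among DEGs were WDR5, the core subunit of the H3K4 methyltransferase complexes, BRPF1, a scaffold of the KAT6 complexes, and MEN1, a partner of KMT2A and KMT2B. WDR5 went from a mean of 98.4 normalised CPM per kb in GV to 4.36 in MII and 3.90 in ‘damaged’ oocytes, a log2 fold change of -4.51 (SE 0.186, FDR 6.07e-13) and -4.65 (FDR 4.71e-13). BRPF1 had -3.30 and -3.58, and MEN1 -2.74 and -2.56. The largest rises were ING3, a NuA4 subunit, at 2.83 and 2.76, RBBP7, a histone chaperone of deacetylase complexes and Polycomb, at 2.42 and 2.33, and TADA2A, an adaptor of GCN5 complexes, at 2.24 and 2.14. On library sizes these 3 rises kept their direction, at 1.91, 1.51 and 1.33 in MII.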

How the data were processed

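RNA of 15 pools of pig oocytes was made into cDNA with a SMART-Seq HT kit, which does not keep strand, and sequenced single-end. Per the study's methods, the authors trimmed reads with AfterQC and ran Kallisto (0.43 in the submitters' processing notes) on the Ensembl cDNA of Sscrofa11.1. The deposited transcript files hold estimated counts and TPM per library. The deposited gene table holds expected counts that the authors made with tximport (lengthScaledTPM) before any filter.

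Gene counts were recomputed from the transcript files with the same formula. Transcripts were placed on 18938 genes by matching computed to deposited counts in the 8 gene columns whose name and total agreed. The other 7 columns were not used. Symbols and positions came from RefSeq tables. The members and lists were chosen with earlier results of these data known.

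limma 3.58.1 (voom, with edgeR 4.0.16 TMM factors and filterByExpr) was fitted once to 14 libraries in 3 groups, and p-values were adjusted over all 13228 genes by Benjamini-Hochberg. The methods of the study name no scaling factors, so library sizes served as the alternative. Isoform usage was tested with the DEXSeq model in DESeq2 1.42.0 on isoforms above a fraction of 0.05 of genes above 1 TPM. Scripts were tested on simulated data. Totals of 6.40 to 23.6 M counts limit the precision of members with few counts, and PCR copies were not removed by molecular identifiers. Values in every library are given for members called as DEGs and for the member of highest GV TPM in each role. Of the partner genes, the 3 largest rises and falls among DEGs are named. Other settings were edgeR, DESeq2, library sizes, all 5 GV libraries, no filter or 10 CPM, summed counts, a replicate block, fits of fewer groups and leaving out each library. The setting with all 5 GV libraries on library sizes was chosen after seeing the data. Same-numbered libraries were compared through their deviations from the group means, with correlations of -0.10 to 0.32 over 13 pairs, 3 of them over 0.1.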

Additional observations from a re-analysis of the deposited data

Results flagged for a closer look

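In 5 of 69 groups of member values tested, 1 library stood apart from the others of its group by Dixon's criterion, which chance alone meets in about 1 of 20 groups. KAT8 was at 34.8 normalised CPM per kb in MII replicate 5, against 23.9 to 26.2 in the other MII libraries. KDM8 was at 0.339 in MII replicate 3, against 0.108 to 0.137. SETD3 was at 8.01 in MII replicate 1, against 5.14 to 5.81, and at 4.82 in ‘damaged’ replicate 3, against 7.25 to 8.16 in the other ‘damaged’ libraries. SIRT5 was at 0.87 in ‘damaged’ replicate 3, against 0.225 to 0.393.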

How the results depend on the processing

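The number of members called depended on scaling and on the filter. On library sizes, 0 members were higher and 15 lower as DEGs in MII, and 0 and 14 in ‘damaged’ oocytes. At any size the numbers were 8 and 31 in MII and 7 and 31 in ‘damaged’ oocytes. The shares of all genes on library sizes stand beside these counts above. With all 5 GV libraries on library sizes they were 0 and 17 as DEGs and 8 and 31 at any size in MII, and in ‘damaged’ oocytes 0 higher as DEGs and 7 and 30 at any size. Of the 13111 genes then tested, 70 were higher and 3947 lower as DEGs in MII, and 1492 and 7519 at any size. In ‘damaged’ oocytes these were 65 and 3730, and 1514 and 7329. A filter of 10 CPM, which leaves fewer genes to test, gave 0 and 3 as DEGs and 16 and 11 at any size in MII, and 0 and 2, 17 and 9 in ‘damaged’ oocytes. A member that this filter removed was not tested and so could not be called. Of the 7463 genes left, 196 were higher and 1190 lower as DEGs in MII, and 2497 and 2889 at any size. In ‘damaged’ oocytes these were 172 and 1158, and 2474 and 2838. With all 5 GV libraries, 4 members were higher as DEGs in ‘damaged’ oocytes, against 691 of 13111 genes. Leaving out 1 library at a time gave 1 to 3 higher and 11 to 11 lower DEGs in MII, 2 to 5 and 9 to 11 in ‘damaged’ oocytes, and 32 to 37 isoforms. The lowest value in MII came without GV replicate 5 and the highest in ‘damaged’ oocytes without GV replicate 1.

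On library sizes 17 of the 63 members changed sign in each comparison. Over all settings, directions turned for 5 of the members given by library. On library sizes EZH2 was at -0.60 in MII and -0.55 in ‘damaged’ oocytes, KDM1B at -0.80 and -0.84, SUV39H2 at -0.37 and -0.39, and KMT5B at -0.06 in MII. With all 5 GV libraries on library sizes EZH2 was at -0.57 and -0.52, KDM1B at -0.79 and -0.83, SUV39H2 at -0.40 and -0.42 and KMT5B at -0.08 and -0.02. With a filter of 10 CPM EZH2 was at -0.02 in MII, and KDM1B at -0.22 and -0.29. Without single libraries KDM1B ranged from -0.04 to 0.14 in ‘damaged’ oocytes. On summed Kallisto counts SETDB1 was at -0.48 and -0.57. Library sizes leave out the TMM factors, and the directions on that scale turn by this scaling. The factors lay between 1.35 and 1.73 in GV, 0.794 and 0.881 in MII, and 0.826 and 0.922 in ‘damaged’ libraries. SETDB1 exchanged isoforms of unequal length. The cause of its turn and of those under the other settings was not tested. A tally over all settings, each left-out library included, covers only the members given by library, 14 of which were chosen as DEGs. In it 1114 values kept direction and side of the threshold, 22 turned, 26 lost the threshold and 17 passed it. It does not describe the other members.

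Each collection gave a pool of every group, but no source says that equal numbers mark 1 collection, and 3 of 13 correlations of same-numbered libraries exceeded 0.1, which leaves the pairing unknown. With the replicate block 2 members were higher and 11 lower as DEGs in MII, without HDAC1, and 3 and 11 in ‘damaged’ oocytes, with SETD9 added. Of 13228 genes, 601 were then higher and 2258 lower as DEGs in MII, and 552 and 2150 in ‘damaged’ oocytes.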
